A study of Mus musculus with 8 samples.

Results

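A set of 9 genes that guide the movement and adhesion of developing T cells was followed in sorted DN3 thymocytes with and without Sel1l. They are the chemoattractant receptor genes Cxcr4, Ccr7, Ccr9 and S1pr1, the integrin subunit genes Itga4, Itgae, Itgb1 and Itgb7, and Epcam. They were taken from the expression table by symbol, and all 9 were found among its 16538 genes. They were selected with results of this genotype comparison already known, so the differences between genotypes given for them are a description and carry no test. The table holds 4 libraries from control mice (Sel1l-f/f, floxed alleles without Cre) and 4 from Sel1l CKO mice (Sel1l-f/f hCD2cre+), all on C57BL/6 and 6 weeks old. Both genotypes carry the floxed alleles, and the controls lack the human CD2-driven iCre transgene that becomes active in the earliest thymic progenitors and remains so in later T lineage cells. DN3 cells were sorted as CD4 and CD8 double-negative, CD44- CD25+ thymocytes. The study's methods describe replicates as independent biological ones, without saying whether a library came from a single mouse or a pool, and errors and p-values measure the spread between these libraries. In bulk RNA, fewer cells that express a gene and less of its RNA per cell cannot be told apart.

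SEL1L is the adaptor of the HRD1 ubiquitin ligase, which removes misfolded proteins from the endoplasmic reticulum, and all the receptors described here are membrane proteins that fold in that compartment. Thymocytes move through the thymus as they mature: progenitors enter from the blood near the boundary of cortex and medulla, DN cells travel outward through the cortex, and mature cells go to the medulla and leave. CXCR4 (receptor of CXCL12) and CCR9 (receptor of CCL25) act in the cortex, CCR7 (receptor of CCL19 and CCL21) directs cells to the medulla, and S1PR1 (a receptor of sphingosine 1-phosphate) is needed for exit. Integrins are pairs of an alpha and a beta chain. The ITGA4 chain pairs with ITGB1 to bind VCAM1 and fibronectin, or with ITGB7 to bind MADCAM1, while ITGAE pairs with ITGB7 alone and binds E-cadherin. EPCAM is a homophilic adhesion molecule of epithelia that some thymocytes also carry.

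The promoters of Epcam and Itga4 are shown because these genes were lower in every Sel1l CKO library than in any control library, and that of Cxcr4 is shown beside them because its libraries overlapped between genotypes. Each is the 250 bases before the RefSeq start of the gene (GRCm38.p6), at chr17:87635729-87635978 on the plus strand for Epcam, chr2:79255176-79255425 on the plus strand for Itga4 and chr1:128592300-128592549 on the minus strand for Cxcr4.
Epcam: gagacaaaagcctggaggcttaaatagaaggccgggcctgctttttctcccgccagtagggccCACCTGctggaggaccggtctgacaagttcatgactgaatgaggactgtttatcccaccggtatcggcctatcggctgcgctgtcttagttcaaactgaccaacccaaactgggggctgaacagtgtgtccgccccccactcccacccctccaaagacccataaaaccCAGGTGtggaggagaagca
Itga4: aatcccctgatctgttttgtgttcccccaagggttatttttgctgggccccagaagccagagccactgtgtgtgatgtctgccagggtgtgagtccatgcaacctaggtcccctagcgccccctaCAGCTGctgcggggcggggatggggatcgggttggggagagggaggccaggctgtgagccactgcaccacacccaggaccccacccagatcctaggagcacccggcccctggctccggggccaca
Cxcr4: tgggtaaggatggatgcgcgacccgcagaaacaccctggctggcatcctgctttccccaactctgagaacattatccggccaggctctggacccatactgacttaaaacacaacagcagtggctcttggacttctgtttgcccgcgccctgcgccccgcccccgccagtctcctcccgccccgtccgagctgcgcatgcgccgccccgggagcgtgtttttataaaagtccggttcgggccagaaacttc
Capitals mark the E-box letters CAGNTG, searched on both strands (CANCTG on the other), a form bound by E proteins such as E2A and HEB, which act in DN thymocytes. Epcam had matches 187 and 19 bases before its start, Itga4 had 1 match 125 bases before its start, and the Cxcr4 window had none. Of the 6 members with a promoter in RefSeq's set, 3 held the letters (Epcam, Itga4 and Ccr9), and so did 44.8% of all 32851 promoters of the same length. A match here is a description of the letters and not evidence of a bound site. Ccr7, S1pr1 and Itgae had no entry.

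Values were deposited as RPKM, reads scaled to gene length and library size, where the length is the whole annotated span of a gene, introns and exons together. The steps between the values gave totals of 32900253 to 50401359 reads counted per library, and the reads recovered for single genes summed to 95.04% to 98.43% of those totals. Sel1l, the deleted gene, had RPKM values of 1.83, 1.66, 1.61 and 1.57 in the control libraries (replicates 1 to 4, the order used throughout) and of 0.917, 0.876, 1.32 and 1.23 in the Sel1l CKO libraries. It fell to 65.1% of control, and the genotypes did not overlap (log2 fold change -0.59, SE 0.13, adjusted p = 0.0327 in the limma test over 6512 genes). Its adjusted p stayed under the threshold without Sel1l CKO replicate 3 (0.0199) or 4 (0.0348) and lay between 0.0646 and 0.0981 without any other single library. Sel1l was at 51.3% of control within replicates 1 and 2 and at 80.1% within replicates 3 and 4. These values pool reads over the whole gene and do not measure how much SEL1L protein remained. The study describes the deletion as efficient, by quantitative RT-PCR and by western blot of DN3 and DN4 cells. Values within replicates 1 and 2 and within replicates 3 and 4 are given beside the members. No label names a batch, and these pairs of libraries are told apart only by their replicate numbers.

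The members spanned a wide range of levels. For this comparison between genes the recovered reads were divided by exon length (GENCODE M21), since annotated spans run from 4095 bases for Cxcr4 to 105892 for Ccr9. The Ccr9 span starts at 123678439, upstream of its RefSeq promoter (123766961 to 123767210). Exon length joined the exons of all annotated transcripts, 1808 bases for Cxcr4, 10260 for Ccr9 and 13978 for Itga4. The order of genes rests on these lengths, and lengths of single transcripts were not used. In control cells Cxcr4 was highest at 72.5 ± 7.56 RPKM on exon length (SD, n = 4), followed by Itgb1 at 45.4 ± 1.47. Epcam at 27.7 ± 5.17 and Itga4 at 27.6 ± 1.40 came next, with overlapping libraries. Ccr9 followed at 13.6 ± 3.53, on these lengths clear of its neighbours on both sides. Itgae at 2.79 ± 0.751 and Itgb7 at 1.51 ± 0.247 overlapped, and Ccr7 at 0.647 ± 0.188 and S1pr1 at 0.154 ± 0.138 were lowest, each apart from the gene above it. Of the receptors, those that act in the cortex were thus the more abundant in these DN3 cells, and those of medullary entry and thymic exit rested on 27 to 96 reads (Ccr7) and 3 to 53 reads (S1pr1) per library.

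**Figure D1:**
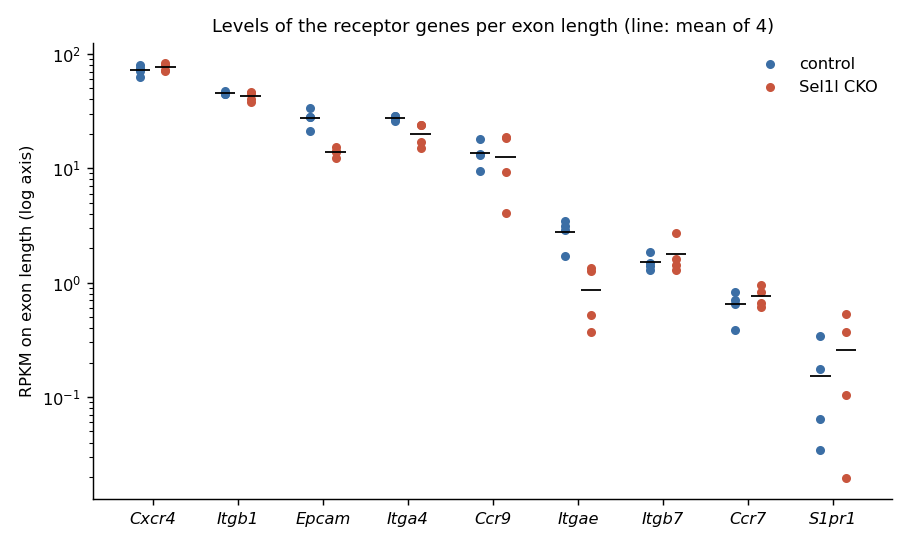
Level of each member in RPKM on exon length (log axis), 1 point per library and a line at the mean of 4, control in blue and Sel1l CKO in red. Control means run from 72.5 for Cxcr4 to 0.154 for S1pr1, and in Sel1l CKO the means of Itgae and Itgb7 and those of Epcam (13.9) and Itga4 (19.9) are in the opposite order.

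Among the receptors, Cxcr4, whose signal supports beta-selection together with the pre-TCR (ENSMUSG00000045382.6, chromosome 1 of GRCm38, 128588199 to 128592293, minus strand), had RPKM values of 33.5, 31.4, 35.5 and 27.7 in control and of 31.5, 32.0, 35.2 and 36.4 in Sel1l CKO. The genotypes overlapped, and the mean was 32.0 ± 3.34 in control and 33.8 ± 2.39 in Sel1l CKO, a log2 difference of 0.08 (SE 0.09, on log2 of RPKM + 0.1, as for all members). At least 4275 reads of Cxcr4 were counted in each library, and replicates 1 and 2 alone gave a log2 difference of -0.03 and replicates 3 and 4 alone gave 0.19.

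Ccr9 (ENSMUSG00000029530.16, chromosome 9, 123678439 to 123784330, plus strand) had at least 1594 reads in every library and varied widely between the Sel1l CKO libraries (SD 56.7% of the mean, against 26.0% in control). It was at 1.31, 1.28, 1.77 and 0.931 RPKM in control and at 0.401, 0.913, 1.84 and 1.79 in Sel1l CKO replicates 1 to 4. Sel1l CKO replicates 1 and 2 were below every control library, and replicates 3 and 4 were above every control library. The log2 difference was -0.25 (SE 0.49) over all libraries, -0.97 within replicates 1 and 2 and 0.46 within replicates 3 and 4, and it was 0.15 without Sel1l CKO replicate 1, so the sign of the mean difference rested on that library. The annotated Ccr9 gene overlaps Lztfl1 on the opposite strand (0.876 RPKM in control and 0.839 in Sel1l CKO), and because the strand setting of the counting is not given, reads of such pairs cannot be told apart.

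Ccr7 (ENSMUSG00000037944.8, chromosome 11, 99144196 to 99155077, minus strand) was scarce in both genotypes. Its values were 0.151, 0.119, 0.0705 and 0.129 RPKM in control and 0.121, 0.175, 0.151 and 0.112 in Sel1l CKO, from 27 to 96 reads per library. The genotypes overlapped, with a log2 difference of 0.15 (SE 0.15), or 0.07 in replicates 1 and 2 and 0.22 in replicates 3 and 4.

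S1pr1 (ENSMUSG00000045092.8, chromosome 3, 115710433 to 115715072, minus strand) was the rarest member, with 8, 5, 19 and 39 reads in control replicates 1 to 4 and 12, 3, 53 and 37 reads in Sel1l CKO replicates 1 to 4. In RPKM these were 0.0424, 0.0226, 0.116 and 0.223 in control and 0.0683, 0.0128, 0.347 and 0.242 in Sel1l CKO. Replicates 3 and 4 of both genotypes lay above replicates 1 and 2 of both, and the genotypes overlapped (log2 difference 0.31, SE 0.56, or 0.06 in replicates 1 and 2, 0.57 in replicates 3 and 4 and -0.0016 without Sel1l CKO replicate 3). The early response genes Nr4a1 and Egr1 showed the same split, Nr4a1 at 2.12 to 2.65 RPKM in replicates 1 and 2 and 6.04 to 11.02 in replicates 3 and 4, and Egr1 at 2.92 to 5.26 and 7.67 to 48.4. The part of this split in the S1pr1 values was not tested.

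**Figure D2:**
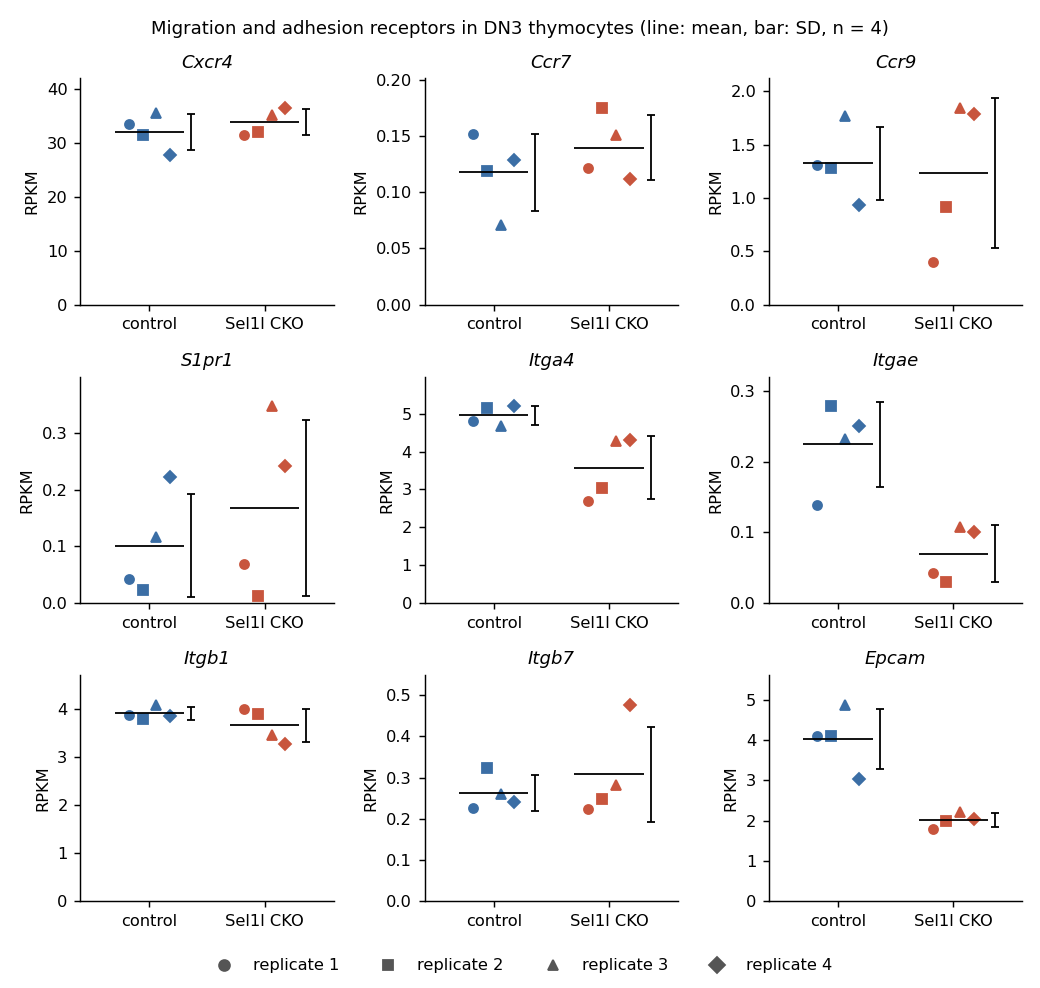
RPKM of the 9 members in each library, 1 panel per gene with its own axis from 0, symbols by replicate number, a line at the mean and a bar of 1 SD (n = 4). Epcam, Itga4 and Itgae show no overlap between control (blue) and Sel1l CKO (red), and among the Sel1l CKO libraries replicates 1 and 2 lie below replicates 3 and 4 in every member except Itgb1 (above) and Ccr7 (mixed).

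Of the integrin subunits, both alpha chains were lower in every Sel1l CKO library than in any control library, while the levels of both beta chains overlapped between genotypes. Itga4 (ENSMUSG00000027009.18, chromosome 2, 79255426 to 79333123, plus strand) was at 4.82, 5.14, 4.68 and 5.20 RPKM in control and at 2.69, 3.03, 4.28 and 4.30 in Sel1l CKO replicates 1 to 4. The lowest control library exceeded the highest Sel1l CKO library, with means of 4.96 ± 0.253 and 3.58 ± 0.837 (72.1% of control, log2 difference -0.49, SE 0.17). The gap was wide in replicates 1 and 2 (57.5% of control) and narrow in replicates 3 and 4 (86.9%), the same order as for Sel1l itself. A link between these levels was not tested and cannot be told apart from other differences between the replicate pairs. Each library held at least 7922 reads of Itga4. The gene overlaps Cerkl on the opposite strand, which was at 0.0114 RPKM in control and 0.0110 in Sel1l CKO.

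Itgae, which encodes CD103 (ENSMUSG00000005947.11, chromosome 11, 73090583 to 73147446, plus strand), was lowest relative to control of all members. Its values were 0.139, 0.279, 0.232 and 0.250 RPKM in control (321, 757, 464 and 537 reads) and 0.0418, 0.0300, 0.107 and 0.101 in Sel1l CKO (90, 86, 201 and 189 reads). The genotypes did not overlap, the control library nearest to Sel1l CKO being replicate 1, and the Sel1l CKO mean was 31.2% of control. The log2 difference of -0.94 (SE 0.23) is reduced by the added 0.1 at this low level, and it was -1.97 on the recovered reads. The mean was 17.2% of control in replicates 1 and 2 and 43.2% in replicates 3 and 4. Haspin overlaps Itgae on the opposite strand and was at 6.42 RPKM in control and 7.76 in Sel1l CKO, a higher mean in Sel1l CKO where that of Itgae was lower.

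Itgb1, the common beta chain of matrix-binding integrins (ENSMUSG00000025809.15, chromosome 8, 128685654 to 128733200, plus strand), was at 3.87, 3.79, 4.08 and 3.85 RPKM in control and at 3.997, 3.89, 3.44 and 3.27 in Sel1l CKO. Sel1l CKO replicates 3 and 4 were below every control library and replicates 1 and 2 were within the control range, and the log2 difference was -0.10 (SE 0.07), or 0.04 in replicates 1 and 2 and -0.23 in replicates 3 and 4. It had the smallest spread between control libraries of all members, 3.23% of its mean. Itgb7 (ENSMUSG00000001281.10, chromosome 15, 102215995 to 102231944, minus strand) had RPKM values of 0.225, 0.323, 0.260 and 0.241 in control and of 0.224, 0.249, 0.282 and 0.477 in Sel1l CKO, with overlap. Its log2 difference was 0.14 (SE 0.20), -0.14 within replicates 1 and 2, 0.42 within replicates 3 and 4 and -0.04 without Sel1l CKO replicate 4.

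The balance between partner chains can be set side by side on exon length within each library. Itgae RNA exceeded Itgb7 RNA in every control library (ratio 1.84 ± 0.377, lowest 1.33) and was below it in every Sel1l CKO library (0.485 ± 0.239, highest 0.821). The ratio of Itga4 to Itgb7 was 18.6 ± 2.65 in control and 11.7 ± 2.42 in Sel1l CKO, with no overlap, and that of Itga4 to Itgb1 was 0.608 ± 0.0475 and 0.479 ± 0.154, with overlap. These ratios are of RNA and say nothing of the chains at the cell surface.

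Epcam (ENSMUSG00000045394.9, chromosome 17 of GRCm38, 87635979 to 87651129, plus strand) was at 4.09, 4.09, 4.87 and 3.04 RPKM in control and at 1.79, 1.99, 2.23 and 2.04 in Sel1l CKO replicates 1 to 4. The highest Sel1l CKO library was below the lowest control library, and the means were 4.03 ± 0.751 and 2.01 ± 0.178, or 49.98% of control (log2 difference -0.95, SE 0.15). Unlike Itga4 and Ccr9, Epcam was similarly lower in both pairs of replicates, at 46.3% of control in replicates 1 and 2 and 53.8% in replicates 3 and 4, and all 4 Sel1l CKO libraries lay between 44.5% and 55.3% of the control mean. Epcam is also an epithelial gene, so the markers of thymic epithelium were read in the same libraries. Of 10 measured, 4 were under 0.1 RPKM in every library, and the summed level was 4.69 to 5.38 RPKM in control and 4.75 to 5.53 in Sel1l CKO. Most of it was the protease gene Ctsl (4.16 to 4.79 and 4.21 to 4.66), and the rest came from the other markers. The part of epithelial RNA in the Epcam values was not tested. The epithelial genes Krt14 and Foxn1 reached no more than 0.00477 and 0.00366 RPKM in any library. Krt5 was at 0 in every control library and reached 0.0209 in Sel1l CKO, and Psmb11, a gene of cortical epithelium, reached 0.0444 RPKM in control and 0.107 in Sel1l CKO. These genes do not stand for the whole list, since the remaining markers, some of them above 0.1 RPKM, are not given singly.

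Over the 9 members, mean log2 levels were lower in Sel1l CKO for 5 and higher for 4, with a median difference of -0.0966 against -0.0047 for the 15856 genes with a value. In 3 members (Epcam, Itga4 and Itgae) every Sel1l CKO library was below every control library, a pattern held by 4.94% of the 15856 genes, and in 0 members was every Sel1l CKO library above. With the limma test, 5 members (Cxcr4, Ccr9, Itga4, Itgb1 and Epcam) reached the mean of 1 RPKM needed to enter, and the calls held Epcam (1 member, lower). Over all 6512 genes tested, 1.01% were called lower and 4.27% higher. On recovered reads with limma voom all 9 entered and Epcam and Itgae were called lower, with 1.55% of 11583 genes called lower and 2.72% higher. As the members were selected on this comparison, nothing is read from these counts.

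**Figure D3:**
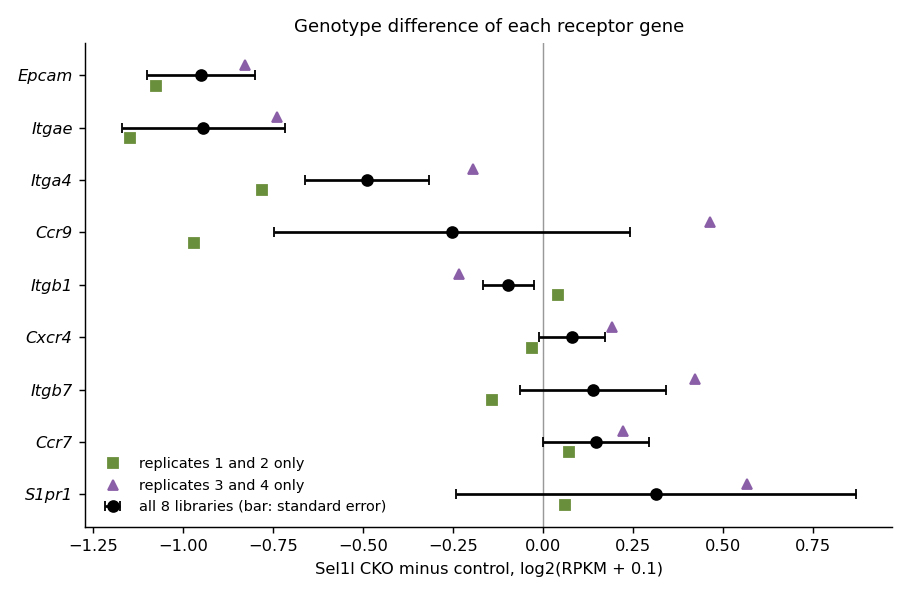
Difference of mean log2(RPKM + 0.1), Sel1l CKO minus control, for each member over all 8 libraries (black, bar of 1 standard error) and within replicates 1 and 2 (green squares) and replicates 3 and 4 (purple triangles). Epcam (-0.95), Itgae (-0.94) and Itga4 (-0.49) are below 0 in both pairs of replicates, while Ccr9 changes sign between -0.97 and 0.46.

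To place the members among related genes, 10 lists of other migration and adhesion genes were read from the same test (chemokine receptors, sphingosine 1-phosphate genes, integrin subunits, integrin activation, selectins and immunoglobulin-type adhesion molecules, selectin ligand synthesis, cadherin and EPCAM partners, chemotaxis signalling, ligands, and transcription factors with TGF-beta signalling). Of the 209 listed genes in the table, 94 were tested by limma, and 3 fell and 0 rose at an adjusted p under 0.05, with 19 under an unadjusted p of 0.05 in either direction. On recovered reads limma voom tested 164, of which 5 fell and 0 rose. Over all tested genes limma called 1.01% lower and 4.27% higher, and limma voom 1.55% and 2.72%. The unadjusted count has no such share beside it, so nothing is read from it. The median log2 fold change of the 94 was -0.05, against 0.01 for all tested genes.

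The genes that fell included adhesion molecules. Itgb4, the beta chain that pairs with ITGA6 to bind laminin, was at 3.93, 4.24, 4.71 and 3.81 RPKM in control and at 2.45, 1.74, 2.93 and 2.83 in Sel1l CKO (log2 fold change -0.75, SE 0.15, adjusted p = 0.0216 by limma). Icam1, a ligand of the integrin LFA-1, was at 1.25, 1.29, 1.47 and 1.13 RPKM in control and at 0.885, 0.688, 0.859 and 0.838 in Sel1l CKO (-0.59, SE 0.11, adjusted p = 0.0112 by limma).

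In both Itgb4 and Icam1 every Sel1l CKO library was below every control library. The call for Itgb4 was lost without control replicate 1 (limma adjusted p = 0.0539), 2 (0.0636) or 3 (0.0696) or Sel1l CKO replicate 1 (0.0536). Icam1 passed in each of these fits that tested it (0.0176 to 0.0387), and without control replicate 3 its mean was under 1 RPKM and it was not tested.

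With a mean under 1 RPKM, and named after its values were seen, Cdh1, which encodes E-cadherin, the ligand of the ITGAE and ITGB7 pair, was at 0.674, 1.06, 1.13 and 0.724 RPKM in control and at 0.306, 0.205, 0.328 and 0.343 in Sel1l CKO. It fell to 32.9% of control (limma voom log2 fold change -1.65, SE 0.22, adjusted p = 0.0013). The RNAs of ITGAE and of its ligand were thus both lower in the same Sel1l CKO libraries, Cdh1 at 29.5% of control in replicates 1 and 2 and 36.1% in replicates 3 and 4. Gpr183, an oxysterol receptor that guides lymphocytes, had 44, 60, 121 and 48 reads in control and 1, 3, 13 and 15 in Sel1l CKO (limma voom log2 fold change -3.47, SE 0.80, adjusted p = 0.0363). At this low level its fold depends on the scale: the difference was -0.95 on log2 of RPKM + 0.1, and -0.16 or -2.47 with 1 or 0.01 added. Its mean was 3.67% of control in replicates 1 and 2 and 18.1% in replicates 3 and 4. It overlaps Ubac2 on the opposite strand, which was at 0.402 RPKM in control and 0.421 in Sel1l CKO.

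**Figure D4:**
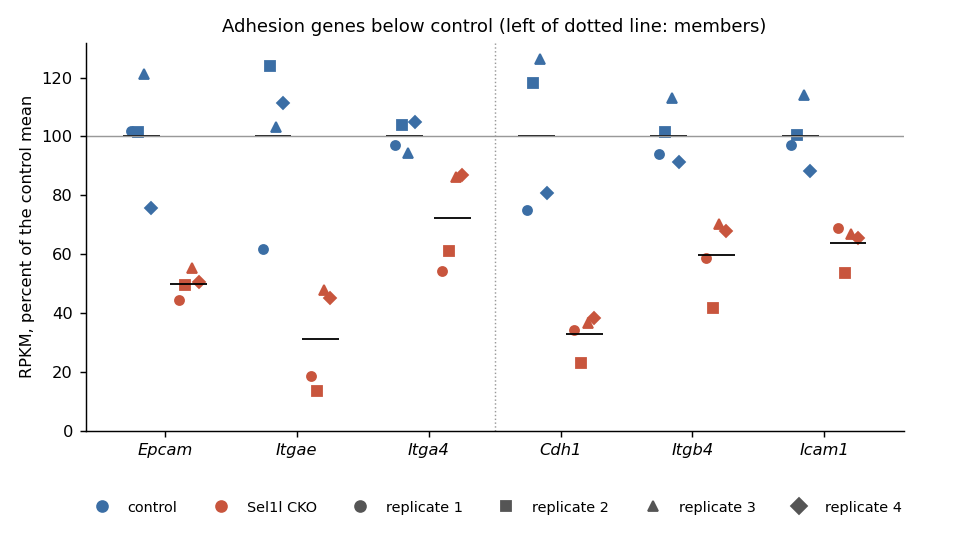
RPKM of adhesion genes in each library as a percent of the control mean of that gene, members Epcam, Itgae and Itga4 to the left of the dotted line and listed genes Cdh1, Itgb4 and Icam1 to the right, with lines at the group means. Sel1l CKO means run from 31.2% (Itgae) to 72.1% (Itga4), and no gene shows overlap between genotypes.

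Partners of the members and of these genes, named for that link after their values were seen, did not pass limma or, where their mean was under 1 RPKM, limma voom. Itgal and Itgb2, the chains of LFA-1, were at 9.37 ± 0.481 and 0.882 ± 0.0670 RPKM in control and at 9.05 ± 0.811 and 1.08 ± 0.194 in Sel1l CKO. Itga6, the partner of ITGB4, was at 0.440 ± 0.0572 and 0.464 ± 0.106. Selplg, the gene of the P-selectin ligand PSGL-1, was at 36.4 ± 3.53 and 36.5 ± 3.71.

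For the receptors, Gnai2, the G protein subunit through which chemokine receptors signal, was at 23.7 ± 1.01 RPKM in control and 23.7 ± 0.834 in Sel1l CKO. S1pr4, another sphingosine 1-phosphate receptor, was at 4.55 ± 0.611 and 4.602 ± 0.895. Klf2, a transcription factor known to drive S1pr1, varied widely between control libraries, at 13.1 ± 14.8 against 3.22 ± 1.85 (adjusted p = 0.534 by limma). TGF-beta signalling is known to induce Itgae, and its receptor gene Tgfbr1 was at 1.21 ± 0.205 and 0.878 ± 0.09998 (adjusted p = 0.105 by limma). Among the other TGF-beta genes listed, mean RPKM was lower in Sel1l CKO for Tgfb1, Smad2, Smad4 and Smad7. It was higher for Smad3 and for Tgfbr2 (0.351 ± 0.0462 in control and 0.434 ± 0.0689 in Sel1l CKO). None of these passed limma or, where the mean was under 1 RPKM, limma voom. The part of TGF-beta signalling in the Itgae values was not tested.

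Markers of cell stages and of other cells in the sort were read beside the lower members. The summed level of 10 DN3 genes was 333.5 to 417.4 RPKM in control and 254.3 to 300.3 in Sel1l CKO, so their sum was lower in the same libraries as Epcam, Itga4 and Itgae. A sum follows its most abundant genes and does not show that each DN3 gene was lower. The limma test called 0 of the 10 (5 under an unadjusted p of 0.05 in either direction), and limma voom called 1 of them, Cd3e, which was lower. This unadjusted count has no share over all genes beside it, so nothing is read from it. Of the other markers, limma and limma voom both called Slc3a2 (after beta-selection) higher, and limma voom called Blk (gamma-delta T cell) and Lyz2 (myeloid) lower. The B cell markers summed to 8.22 to 10.2 RPKM in control and 5.32 to 8.22 in Sel1l CKO with 3 of 5 under 0.1 in every library, and 8 myeloid and dendritic cell markers to 5.78 to 9.35 and 3.56 to 6.94 with 2 under 0.1. Markers of cells after beta-selection summed to 59.7 to 122.5 and 51.7 to 74.6, and those of DP or SP thymocytes to 2.42 to 4.24 and 2.60 to 5.05. Early progenitor markers were at 0.440 to 0.586 and 0.211 to 0.420, gamma-delta T cell markers at 2.13 to 2.47 and 1.84 to 2.54, and erythroid markers at 0.00 to 0.723 and 0.318 to 1.88. NK cell markers reached 0.0231 and 0.0230, and endothelial or fibroblast markers 0.106 and 0.0574. The part of these differences in the levels of Epcam, Itga4 and Itgae was not tested.

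The genes whose pattern over the 8 libraries was most like that of a member were found by Pearson's r on the log2 scale among the genes of at least 1 RPKM. They are a description, since all 8 libraries share the genotype difference and the replicate pairs. Itgae was most like Cd3e (r = 0.98), a chain of the T cell receptor complex. Epcam was most like Kbtbd7 (r = 0.98). Itga4 was most like Ifi35 (r = 0.98) and Mfsd13a (r = 0.98), and Ccr9 was most like Sema4a (r = 0.97) and Haghl (r = 0.96). For Cxcr4 these were Tcf25 (r = 0.95) and Ccnd2 (r = 0.89), for Ccr7 Recql (r = 0.95) and H1f4 (r = 0.94), and for S1pr1 Eps8l1 (r = 0.95) and Wdr45 (r = 0.905). Itgb1 was most like Zcchc10 and Wdr83os (both r = 0.96), and Itgb7 was most like Ring1 and Fbxo6 (both r = 0.92).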

How the data were processed

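Sorted DN3 thymocytes were profiled by RNA-seq, and labels gave the genotype of each library (4 control, 4 Sel1l CKO). From stranded mRNA libraries sequenced paired-end, the authors made alignments to GRCm38 with STAR 2.5.2b and protein-coding gene counts with HTSeq 2.7, which they deposited as RPKM. The strand setting of the counting is not given in the sources used here. With GENCODE M21 gene spans, 75.3% of genes gave whole reads (tolerance 0.02) in every library, and reads of 94.7% of genes with a value were recovered.

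Values were tested as log2(RPKM + 0.1) with limma 3.58.1 (R 4.3.3), a mean-variance trend and genotype as the only term, for genes with a mean of at least 1 RPKM, with Benjamini-Hochberg adjustment and a threshold of 0.05. The alternatives were pseudocounts of 1 and 0.01, no filter, a mean RPKM of at least 5, median-of-ratios and quantile scaling, limma voom on recovered reads (mean of at least 10), RPKM on exon length, replicates 1 and 2 or 3 and 4 alone, a replicate block and leaving out each library. Both fits were tested on simulated data. Named genes are the members, Sel1l, called genes of each list and the 2 genes most like each member, some of which are not reported here. Members and lists were chosen with earlier results of these data known. A further 5 listed genes and 7 marker genes had no row under their symbol and were not analysed here. The reads per library were 32900253 to 50401359, and S1pr1, Ccr7 and Gpr183, with few reads, carry the largest counting error of the genes described.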

Additional observations from a re-analysis of the deposited data

Results flagged for a closer look

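Among the members and other named genes, each genotype's 4 libraries were checked for a library far from the rest, and 1 of 30 groups stood out, where chance gives about 1.5. Gpr183 was at 0.267 RPKM in control replicate 3, against 0.0841 to 0.0989 RPKM in the other control libraries. All control libraries remained above every Sel1l CKO library, which reached 0.0354 RPKM.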

How the results depend on the processing

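The count of members with a lower mean in Sel1l CKO was 5 and stayed between 4 and 6 under every alternative run, 4 to 6 when 1 library was left out. The 344 genes called over the whole table became 218 with a mean RPKM of at least 5 (fewer genes tested) and 244 to 314 without 1 library. The 3 listed genes called became 5 with no filter on low values (Cdh1, F11r, Gcnt1, Icam1 and Itgax), 1 with a mean RPKM of at least 5, 5 with limma voom (Icam1, Itgb4, Cdh1 and Gpr183 among them) and 1 to 3 without 1 library. Without the filter, the limma adjusted p was 0.0809 for Itgb4 and 0.0904 for Sel1l. The log2 difference of Itgae was -0.19 with a pseudocount of 1 and -1.66 with 0.01. Deviations of same-numbered libraries from their genotype means correlated at 0.16, 0.0973, 0.44 and 0.0051. Such values, each from deviations around a mean of 4 libraries, cannot settle whether same-numbered libraries were paired. Control replicates 1 and 2 correlated at 0.0973 to 0.292 with Sel1l CKO replicates 1 and 2 and at -0.22 to -0.25 with 3 and 4, control replicate 3 at -0.38 and -0.36 and at 0.44 and 0.40, and control replicate 4 at -0.083 to 0.087 with all 4. With a replicate block, 317 genes and 4 listed genes were called (Ccrl2, Icam1, Itgb4 and Rgs2), and the limma adjusted p was 0.0601 for Sel1l. The cause of these changes was not tested. Depth limits S1pr1, with as few as 3 reads in a library.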
